A study of Mus musculus with 4 samples.

Results

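Core splicing factors and heterogeneous nuclear ribonucleoproteins (hnRNPs) are described here in the outflow tract of the embryonic mouse heart, the arterial end from which the aortic and pulmonary roots form. The members were all genes of the count table whose mouse symbol starts with 1 of 7 prefixes (Srsf, Hnrnp, Sf3a, Sf3b, U2af, Prpf or Snrp), leaving out Snrpn and symbols that end as pseudogenes with -ps. Of 72 symbols with a prefix, 4 were left out and 68 were members, among 45706 genes in the table. All 68 passed the filter on low counts, as did 16570 genes in all. Of the members 67 are annotated as protein-coding, and Snrpert is annotated as a processed pseudogene. The Sox17eKO embryos were C57BL/6 with Sox17, which encodes an endothelial transcription factor, deleted by a Cre recombinase under an enhancer of Nfatc1, so the deletion was directed at endothelial cells of the aortic root and not at the other cells of the outflow tract. The WT embryos were C57BL/6 wild type. Both groups were taken at embryonic day 12.5, and each had 2 libraries of total RNA, each from 10 pooled hearts, with 20 mice per genotype. The series set the 2 genotypes against each other to look for targets of SOX17.

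Introns are removed from a pre-mRNA by the spliceosome, which is built anew on each intron from small nuclear ribonucleoproteins (snRNPs). U1 snRNP marks the 5′ splice site, U2AF and U2 snRNP mark the 3′ splice site and the branch point, and the tri-snRNP of U4, U5 and U6 then joins. SR proteins mostly favour the use of nearby exons, hnRNPs coat nascent RNA and often oppose it, and the balance between them sets many alternative exons. Many SR protein and hnRNP genes hold down their own mRNA through exons or introns whose inclusion sends the transcript to nonsense-mediated decay.

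Reads assigned to genes numbered 14306550 and 21883956 in Sox17eKO replicates 1 and 2, against 12880081 and 8113463 in WT replicates 1 and 2. Sox17 stood at 2.76 and 2.82 CPM (counts scaled to library size) in the Sox17eKO libraries, against 6.05 and 6.83 CPM in the WT libraries (log2 fold change -1.19, edgeR adjusted p = 0.00574). Reads outside annotated exons made up 34.1% and 29.5% of uniquely placed reads in Sox17eKO, against 22.2% and 20.4% in WT. Summed endothelial markers were 744 and 798 CPM in Sox17eKO, against 805 and 823 CPM in WT. Of the 6, 5 were fitted lower in Sox17eKO and Tie1 was called lower (log2 fold change -0.34, edgeR adjusted p = 0.0204). Summed cardiomyocyte markers were 16830 and 18730 CPM in Sox17eKO, against 16720 and 17470 CPM in WT, a sum carried by Myh7 (7538 and 8969 CPM, against 7049 and 7156 CPM in WT). The median of the 8 cardiomyocyte markers was -0.10, with 5 fitted lower and 0 called by edgeR (2 higher and 3 lower at an unadjusted p under 0.05). All 4 epicardial markers were fitted lower and 2 were called (Upk3b -0.35 and Lrrn4 -0.53), with sums of 243 and 223 CPM in Sox17eKO, against 265 and 290 CPM in WT. Of 4 smooth muscle markers Cnn1 was called lower (-0.35), and of 6 mesenchyme markers Pdgfra was called higher (0.32). The macrophage, neural crest, liver and proliferation lists had 0 calls by edgeR, with 1 higher and 1 lower at an unadjusted p under 0.05, both of the proliferation list. All 7 erythroid markers were fitted lower in Sox17eKO, 1 of them past the threshold, with sums of 1590 and 2059 CPM against 2395 and 3030 CPM in WT. Liver markers differed between the pools within each genotype (5.38 and 123 CPM in Sox17eKO, 71.3 and 11.5 CPM in WT). Of all markers listed, 1 of the neural crest list was at 0 in a library. The parts of these differences in the results below were not tested.

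The members as a group held the same share of the transcriptome in both genotypes to within a few hundredths of a percentage point. They took 0.969% and 0.958% of gene reads in Sox17eKO, against 0.951% and 0.948% in WT, and their summed level was 9556 and 9534 CPM in Sox17eKO, against 9503 and 9731 CPM in WT. Levels between genes are compared per length, as CPM per kilobase of annotated exons, averaged over the 4 libraries. Hnrnpab had the highest level at 171 CPM per kilobase, followed by Snrpert at 157, Srsf2 at 95.3, Snrpb at 92.8, Hnrnph1 at 90.3, Hnrnpa2b1 at 86.9 and Srsf1 at 86.5 CPM per kilobase. The order among Srsf2, Snrpb and Hnrnph1 and among Hnrnpa2b1 and Srsf1 rests on gaps of a few percent, about the size of the spread between pools. Srsf12 at 0.585 and Snrpc at 1.73 CPM per kilobase were the lowest. The length takes in every annotated exon of a gene, 6521 bp for Snrpc, so this order depends on the annotation. In CPM Snrpg lay below Snrpc, at 6.76 to 8.73 CPM over the libraries, against 9.85 to 12.5 CPM. The order of mean levels over the 68 members was nearly the same in Sox17eKO and WT (Spearman's rho 0.99, a description over genes of the same libraries). The pools of a genotype differed little for these genes, with a median coefficient of variation over members of 4.27% in Sox17eKO and 4.14% in WT (n = 2 pools each).

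Of the 68 members, 2 passed the threshold of an adjusted p under 0.05, or 2.94%, against 5.35% of all genes tested. Hnrnpr was higher in Sox17eKO and Sf3b6 was lower, where 4.13% of all genes tested were called higher and 1.22% lower (684 and 202 genes, or 769 and 111 when scaled by library size only). The p-values measure the spread between pools, with 2 pools per genotype. The fitted log2 fold change was above 0 in 33 members and below 0 in 35, with a median of -0.03 over members and -0.01 over all genes tested, and it ran from -0.32 to 0.38. The 95% interval of the fold change lay within 1.5-fold in either direction for 66 of 68 members (97.1%), against 64.2% of all genes tested, and within 2-fold for all 68. The exceptions to the 1.5-fold bound were Srsf12 and Snrpg, both of low level. An unadjusted p under 0.05 was found for 23 members (33.8%), 12 higher and 11 lower in Sox17eKO, against 20.9% of all genes tested. The members' median level was 87.9 CPM, against 25.9 CPM over the protein-coding genes tested. The part of level in the shares of intervals and of unadjusted p was not tested. The libraries of the genotypes did not overlap for 40 members (58.8%), against 52.8% of all genes tested, with 16 higher in Sox17eKO and 24 lower, where 26.5% and 26.2% of all genes tested were so. In bulk tissue, fewer cells of a type and less RNA per cell cannot be told apart, and these genes are active in every cell type. With 1 library left out, the number of members called by edgeR was 0 without Sox17eKO replicate 1 (2.78% of all genes tested), 3 without Sox17eKO replicate 2 (5.11%), 5 without WT replicate 1 (7.01%) and 0 without WT replicate 2 (1.11%). Each of these fits leaves 1 pool in a genotype, so the spread between pools comes from the other genotype alone. Over all genes, 472 were called without Sox17eKO replicate 1 and 192 without WT replicate 2.

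**Figure D1:**
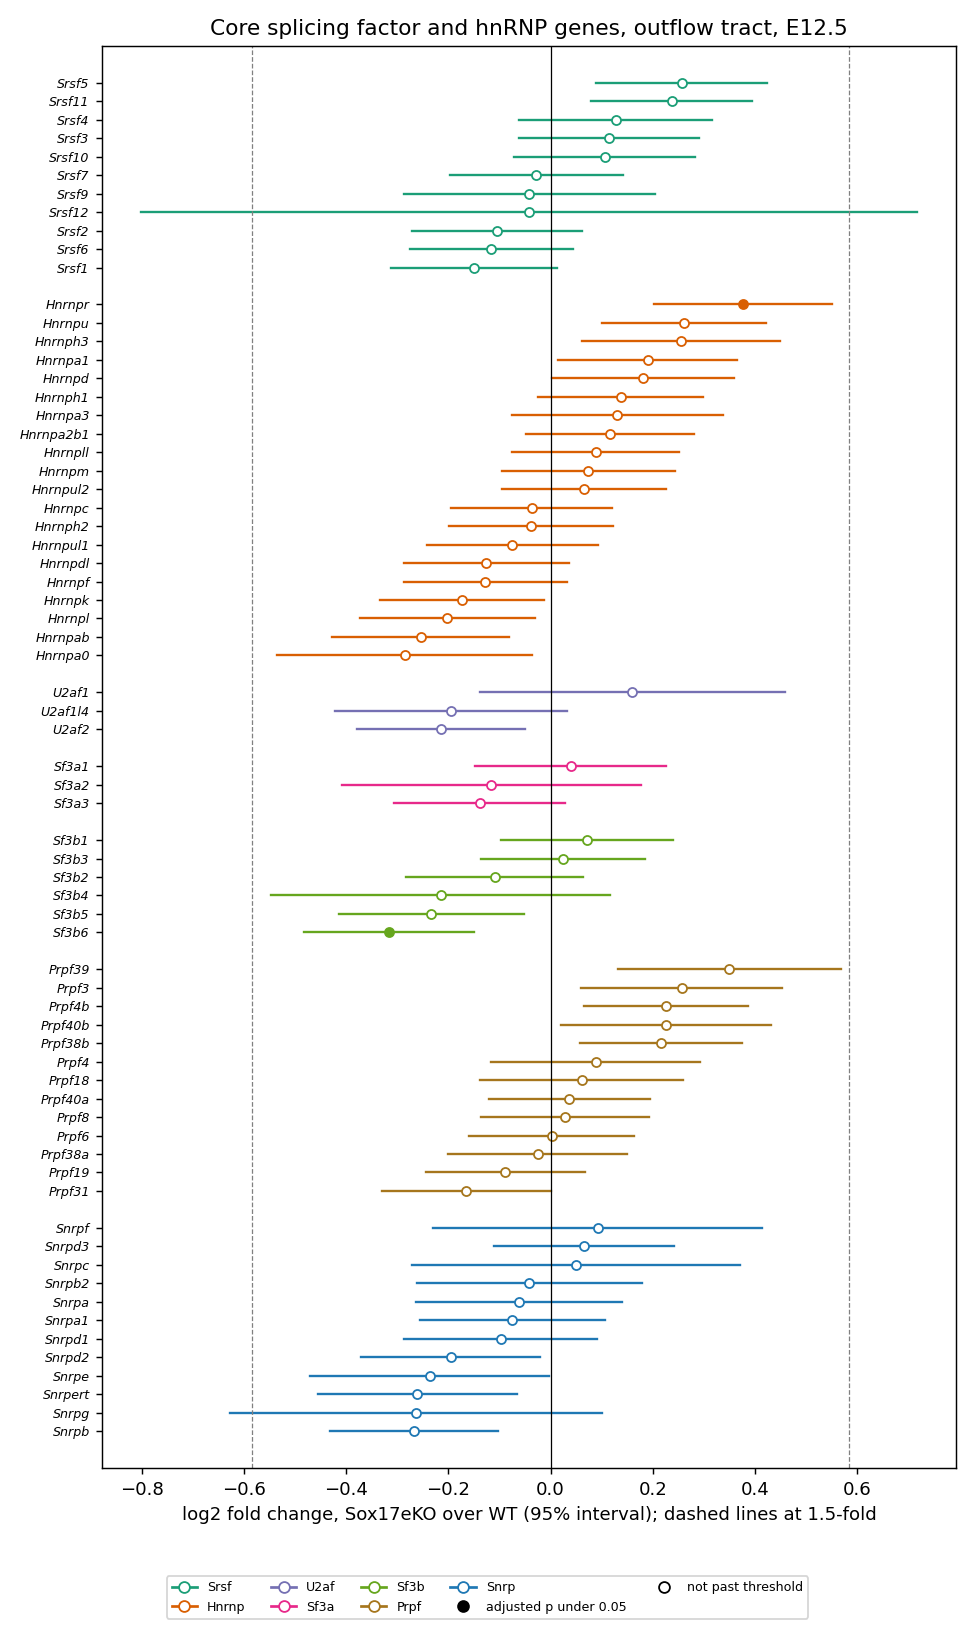
Fitted log2 fold change of Sox17eKO over WT for each of the 68 members, by prefix family, with lines for the 95% interval and filled points for an adjusted p under 0.05 (2 pools per genotype). Hnrnpr at 0.38 and Sf3b6 at -0.32 are filled, and the intervals of all but Srsf12 and Snrpg stay within the dashed lines at 1.5-fold.

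Hnrnpr was the member with the largest rise. It encodes an RNA-binding protein closely related to the product of Syncrip and is known for its role in the transport of mRNA in neurons. Hnrnpr (ENSMUSG00000066037) lies on chromosome 4 from 136310942 to 136359447 on the plus strand of GRCm38, the assembly that mm10 names, with 22199 bp of annotated exons, the longest of the members. It stood at 197 and 172 CPM in Sox17eKO replicates 1 and 2, against 146 and 138 CPM in WT replicates 1 and 2. Both Sox17eKO pools were above both WT pools, and the 2 Sox17eKO pools were further apart than the 2 WT pools. The fitted level was 130% of that in WT, a log2 difference of 0.38 (standard error 0.083, 95% interval 0.20 to 0.55, edgeR adjusted p = 0.0128). The call was lost without Sox17eKO replicate 1 (log2 fold change 0.27, edgeR adjusted p = 0.137) and without WT replicate 2 (0.34, edgeR adjusted p = 0.114). The annotated antisense gene Gm27022 overlaps Hnrnpr, and whether reads were counted by strand is not stated in the sources used here.

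Sf3b6 was the member with the largest fall. It encodes the small subunit of the SF3B complex that sits at the branch point adenosine of the intron. Sf3b6 (ENSMUSG00000037361) lies on chromosome 12 from 4817544 to 4827659 on the plus strand of GRCm38, with 2854 bp of annotated exons and no annotated gene overlapping it. It stood at 59.9 and 57.6 CPM in the Sox17eKO libraries, against 72.8 and 73.3 CPM in the WT libraries. The pools of each genotype were close to each other and the genotypes did not overlap. The fitted level was 80.4% of that in WT, a log2 difference of -0.32 (standard error 0.079, 95% interval -0.48 to -0.15, edgeR adjusted p = 0.0262). The direction held with each library left out, but the call was lost in each of these 4 fits, at edgeR adjusted p = 0.0726 and 0.105 with Sox17eKO replicate 1 or 2 left out and 0.0527 and 0.14 with WT replicate 1 or 2 left out.

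The upstream sequences of these 2 genes are shown because they were the members called and the deleted factor binds DNA. The SR protein gene Srsf5, described with its family below, is shown beside them. They are from RefSeq (GRCm38.p6, plus strand, 5′ to 3′), end before the annotated gene start, and have in capitals each match to the CCAAT box (CCAAT, or ATTGG on the other strand). The core motif of SOX factors (ATTGT, or ACAAT on the other strand), which differs from the CCAAT box at 1 end and so cannot share all its letters with it, would also be in capitals, and it has no match in any of the 3.
Hnrnpr, chr4:136310692-136310941: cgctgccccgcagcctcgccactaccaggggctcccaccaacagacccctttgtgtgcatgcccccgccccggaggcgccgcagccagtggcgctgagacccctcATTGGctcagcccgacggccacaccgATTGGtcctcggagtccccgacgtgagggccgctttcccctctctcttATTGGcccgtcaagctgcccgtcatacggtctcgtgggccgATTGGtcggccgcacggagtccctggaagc
Sf3b6, chr12:4817358-4817543: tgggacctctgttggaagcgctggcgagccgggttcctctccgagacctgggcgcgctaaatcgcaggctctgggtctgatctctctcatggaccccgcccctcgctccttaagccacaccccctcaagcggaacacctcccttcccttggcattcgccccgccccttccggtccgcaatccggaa
Srsf5, chr12:80945249-80945498: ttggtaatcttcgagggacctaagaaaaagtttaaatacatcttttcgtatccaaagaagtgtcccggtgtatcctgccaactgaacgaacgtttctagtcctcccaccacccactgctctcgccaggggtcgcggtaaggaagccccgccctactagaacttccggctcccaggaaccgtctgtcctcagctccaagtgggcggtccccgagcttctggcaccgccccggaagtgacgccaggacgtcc

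Hnrnpr has 4 matches to the CCAAT box in this window and 0 before a further start that RefSeq lists inside the gene (chr4:136311348-136311597, not shown), and Sf3b6 and Srsf5 have 0. Over the 250 bases before the start of all 76 promoters listed for 58 of the 68 members (10 members had no entry), 36 held a CCAAT box (47.4%), against 33.8% of all 32851 promoters in the table. The SOX core motif was in 12 of the 76 (15.8%), against 27.7% of all promoters. The members' promoters had a median GC content of 60.6%, against 52.4%, and a median ratio of observed to expected CpG of 0.901, against 0.374 over all promoters. This ratio was above 0.6 in 71 of the 76 promoters (93.4%), against 34% of all promoters. A match is only a run of letters and says nothing of whether a factor is bound there.

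Among the 20 hnRNP genes, 11 were fitted higher and 9 lower in Sox17eKO, 1 of them past the threshold. At an unadjusted edgeR p under 0.05 there were 9 (45%, against 20.9% of all genes tested), 5 higher and 4 lower. Their median log2 fold change was 0.07. Hnrnpu, which encodes a nuclear scaffold protein also known as SAF-A, stood at 175 and 164 CPM in Sox17eKO, against 145 and 138 CPM in WT. The Hnrnpu libraries did not overlap, and its log2 fold change of 0.26 was just outside the threshold (edgeR adjusted p = 0.0538). The gene Cox20 overlaps it in the annotation, as Phykpl overlaps Hnrnpab and Mfsd11 and Mettl23 overlap Srsf2. Hnrnpab, which encodes a nucleocytoplasmic RNA-binding protein and had the highest level per length of all members, stood at 416 and 453 CPM in Sox17eKO, against 491 and 546 CPM in WT. Both Sox17eKO pools were below both WT pools for Hnrnpab (log2 fold change -0.25, 95% interval -0.43 to -0.08, edgeR adjusted p = 0.0782). It was past the threshold in 4 of 17 alternatives, and it was at -0.33 with WT replicate 1 left out. Hnrnpa0, an intronless hnRNP gene, had the second lowest fold change of all members. It stood at 110 and 111 CPM in Sox17eKO, against 116 and 154 CPM in WT, so that WT replicate 2 lay well above the other 3 libraries (log2 fold change -0.29, edgeR adjusted p = 0.176). The Hnrnpa0 value was -0.07 with that library left out, and with WT replicate 1 left out it was -0.49 and past the threshold (edgeR adjusted p = 0.00226). Of the abundant hnRNPs that coat most nascent RNA, Hnrnpa2b1 had a log2 fold change of 0.12, Hnrnph1 of 0.14, Hnrnpk of -0.17, Hnrnpl of -0.20, Hnrnpm of 0.07 and Hnrnpc of -0.04, none past the threshold. Their 95% intervals ended between -0.37 and 0.30. Hnrnpk was called lower with the trend on GC content removed (-0.24, edgeR adjusted p = 0.0204), with trends on length, span and GC content removed, and with the replicate block and the length and span trend removed, where Hnrnpl was called lower too.

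**Figure D2:**
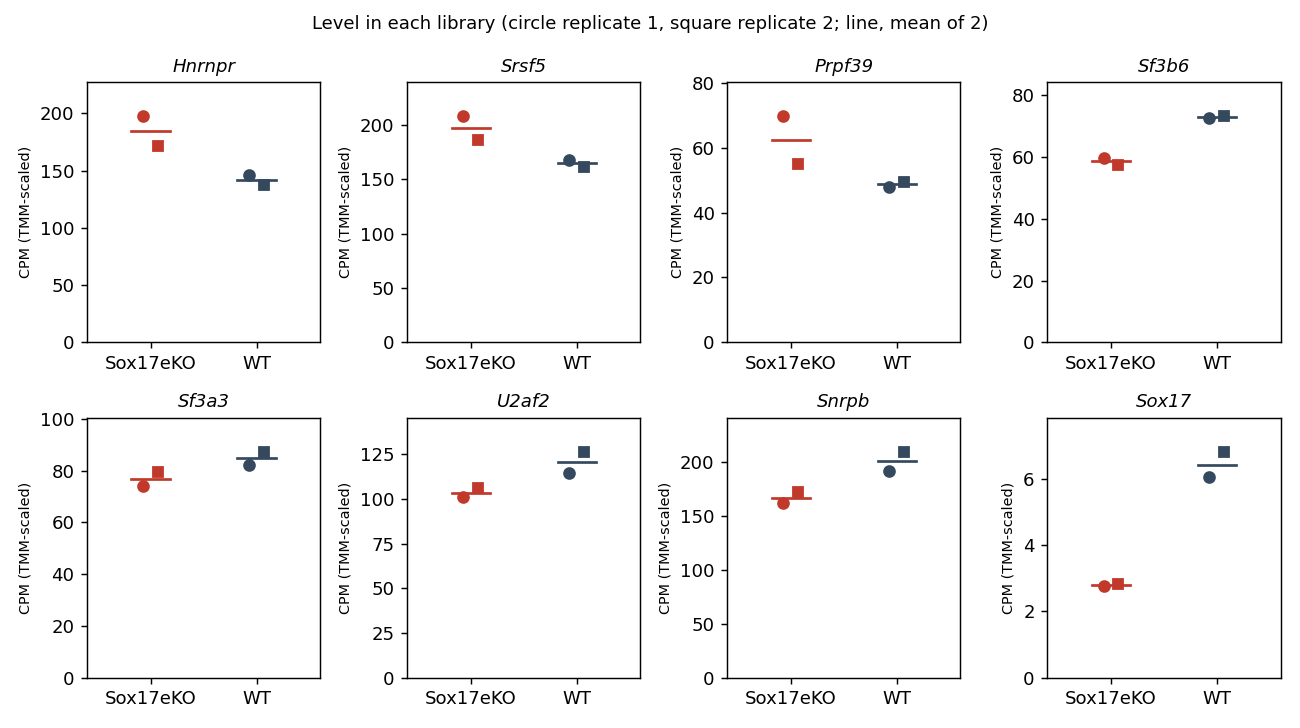
Level in CPM (TMM-scaled, axes start at 0) of 7 members and of Sox17 in each library, Sox17eKO left and WT right, with circles for replicate 1, squares for replicate 2 and a line at the mean of 2. The Sox17eKO points lie above the WT points for Hnrnpr, Srsf5 and Prpf39 and below them for Sf3b6, Sf3a3, U2af2, Snrpb and Sox17.

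None of the 11 Srsf genes passed the threshold in the main edgeR fit (16570 genes, genotype as the only term), by limma-voom or by DESeq2. At an unadjusted edgeR p under 0.05 there were 2 (18.2%, against 20.9% of all genes tested), both higher in Sox17eKO. The median log2 fold change was -0.03, with 5 fitted higher and 6 lower. Srsf5, which encodes a shuttling SR protein, stood at 208 and 186 CPM in Sox17eKO, against 168 and 161 CPM in WT. Its libraries did not overlap, with a log2 fold change of 0.26 and a 95% interval of 0.09 to 0.42 (edgeR adjusted p = 0.0667). Srsf5 was past the threshold in 7 of 17 alternatives, and it was at 0.34 with Sox17eKO replicate 2 left out. Srsf11, which encodes an SR-related protein that contacts U2AF, stood at 177 and 167 CPM in Sox17eKO, against 147 and 144 CPM in WT (log2 fold change 0.24, edgeR adjusted p = 0.073). With a block on replicate number Srsf11 was called higher. The pattern for Srsf5 and Srsf11 was the same, with Sox17eKO replicate 1 the highest library and WT replicate 2 the lowest. The Srsf gene of highest level per length, Srsf2, whose product SC35 is a marker of nuclear speckles, stood at 261 and 282 CPM in Sox17eKO, against 282 and 302 CPM in WT (log2 fold change -0.10, edgeR adjusted p = 0.48). Srsf1, which encodes the founding SR protein ASF/SF2, stood at 483 and 454 CPM in Sox17eKO, against 525 and 515 CPM in WT (log2 fold change -0.15, edgeR adjusted p = 0.278). It was called lower with the trend on GC content removed (-0.22, edgeR adjusted p = 0.0247). Srsf12 was the member of lowest level, at 1.66 and 2.05 CPM in Sox17eKO, against 2.40 and 1.27 CPM in WT. Its interval of -0.80 to 0.72 does not exclude a difference of 1.5-fold in either direction.

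The 2 subunits of U2AF, which bind the end of the intron, were fitted in opposite directions without passing the threshold. U2af2, whose product binds the polypyrimidine tract, stood at 101 and 106 CPM in Sox17eKO, against 115 and 127 CPM in WT (log2 fold change -0.22, 95% interval -0.38 to -0.05, edgeR adjusted p = 0.118). U2af1, whose product contacts the AG at the 3′ splice site, stood at 15.5 and 12.8 CPM in Sox17eKO, against 12.4 and 12.8 CPM in WT (log2 fold change 0.16, edgeR adjusted p = 0.565). The U2af1 values of Sox17eKO replicate 2 and WT replicate 2 were all but equal, and the interval of -0.14 to 0.46 spans 0. The U2af1 value was 0.02 without Sox17eKO replicate 1 and 0.30 without Sox17eKO replicate 2. The remaining U2af gene, U2af1l4, stood at 26.8 and 24.6 CPM in Sox17eKO, against 28.6 and 30.1 CPM in WT (log2 fold change -0.19, edgeR adjusted p = 0.319). Its direction was that of U2af2.

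U2 snRNP recognises the branch point through the SF3A and SF3B complexes. Of the 3 Sf3a genes, 0 passed the threshold by edgeR, limma-voom or DESeq2, and 0 had an unadjusted edgeR p under 0.05. Sf3a3, the Sf3a gene with the highest level per length, stood at 74.1 and 79.4 CPM in Sox17eKO, against 82.1 and 87.3 CPM in WT (log2 fold change -0.14, edgeR adjusted p = 0.336). Sf3a2, the one with the lowest, stood at 11.5 and 13.3 CPM in Sox17eKO, against 13.3 and 13.7 CPM in WT (-0.12, edgeR adjusted p = 0.689). Among the 6 Sf3b genes the 3 with the shortest exons had lower fitted fold changes than the 3 with the longest. Sf3b1, which encodes the large scaffold that clamps the branch site helix, stood at 537 and 527 CPM in Sox17eKO, against 533 and 479 CPM in WT, with overlapping libraries (log2 fold change 0.07, 95% interval -0.10 to 0.24, edgeR adjusted p = 0.662). Sf3b3 was at 0.03 and Sf3b2 at -0.11. The small subunit genes Sf3b4, Sf3b5 and Sf3b6 had log2 fold changes of -0.21, -0.23 and -0.32, the last past the threshold. With WT replicate 2 left out Sf3b4 was at -0.07 and Sf3b5 at -0.12, and with WT replicate 1 left out they were at -0.39 and -0.35, Sf3b5 then past the threshold (edgeR adjusted p = 0.0245). Sf3b4 was covered thinly, at 9.45 and 9.19 CPM in Sox17eKO, against 9.77 and 12.1 CPM in WT.

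Of the 13 Prpf genes, which encode proteins of U1 snRNP, of the tri-snRNP and of the catalytic spliceosome, 10 were fitted higher in Sox17eKO and 3 lower. The median log2 fold change was 0.06, and 0 passed the threshold in the main edgeR fit, by limma-voom or by DESeq2. At an unadjusted edgeR p under 0.05 there were 5 (38.5%, against 20.9% of all genes tested), all higher in Sox17eKO. Prpf38b, Prpf39 and Prpf4b were called higher with a block on replicate number, and Prpf40b with the trend on GC content removed. Prpf39, whose product is a partner of U1 snRNP, stood at 69.8 and 54.9 CPM in Sox17eKO, against 48.1 and 49.5 CPM in WT. Sox17eKO replicate 1 lay well above the other 3 libraries. The log2 fold change was 0.35 (95% interval 0.13 to 0.57, edgeR adjusted p = 0.0571), and it was 0.17 without Sox17eKO replicate 1 (edgeR adjusted p = 0.521) and 0.52 without Sox17eKO replicate 2 (edgeR adjusted p = 0.000753). It was past the threshold in 6 of 17 alternatives. The annotated genes Fkbp3 and Gm25970 overlap Prpf39. Prpf4b, which encodes a kinase of tri-snRNP proteins, stood at 200 and 189 CPM in Sox17eKO, against 170 and 162 CPM in WT (log2 fold change 0.23, edgeR adjusted p = 0.0894). Prpf3, Prpf38b and Prpf40b had fold changes of 0.26, 0.22 and 0.23 on the log2 scale, also without overlap and not past the threshold. Prpf8, whose product forms the catalytic centre of the spliceosome and which had the highest level per length of this family, stood at 310 and 340 CPM in Sox17eKO, against 319 and 318 CPM in WT (log2 fold change 0.03, 95% interval -0.14 to 0.19, edgeR adjusted p = 0.876).

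The Snrp genes encode the Sm proteins, which form a ring of 7 around most spliceosomal small nuclear RNAs, and proteins specific to U1 or U2. Of the 12, 3 were fitted higher and 9 lower in Sox17eKO. Their median log2 fold change was -0.09, and 0 passed the threshold in the main edgeR fit, by limma-voom or by DESeq2. At an unadjusted edgeR p under 0.05 there were 4 (33.3%, against 20.9% of all genes tested), all lower in Sox17eKO. The 7 Sm ring genes had a median of -0.20, with 2 fitted higher and 5 lower. The 4 genes of U1 and U2 specific proteins (Snrpa, Snrpa1, Snrpb2 and Snrpc) had a median of -0.05. Snrpb, which encodes SmB and had the smallest p of the family, stood at 161 and 171 CPM in Sox17eKO, against 192 and 209 CPM in WT. Both Sox17eKO pools were below both WT pools (log2 fold change -0.27, 95% interval -0.43 to -0.10, edgeR adjusted p = 0.0546). Snrpb was past the threshold in 5 of 17 alternatives, most of them with all 4 libraries kept. With WT replicate 1 left out it was at -0.33. Snrpd2 at -0.20, Snrpe at -0.24 and Snrpg at -0.26 were also without overlap, whereas Snrpd3 at 0.07 and Snrpf at 0.09 overlapped. Snrpc, which encodes the U1 protein that contacts the 5′ splice site, stood at 11.03 and 11.7 CPM in Sox17eKO, against 9.85 and 12.5 CPM in WT (log2 fold change 0.05, edgeR adjusted p = 0.895).

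Snrpert is a processed copy of Snrpe, 279 bases long, of which 276 are identical to the Snrpe transcript (98.9%). It lies inside Rnf24 on the same strand. Snrpert stood at 41.8 and 38.2 CPM in Sox17eKO, against 49.0 and 46.4 CPM in WT (log2 fold change -0.26), and Snrpe at 27.2 and 25.7 CPM in Sox17eKO, against 28.9 and 33.8 CPM in WT. Reads of the 2 genes and of Rnf24 cannot be fully told apart at this identity, so the level of each is uncertain. Hnrnpa1 and other members are also known to have processed copies, and their levels are uncertain in the same way.

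The direction of a member's fitted difference ran with the length of its exons. Over the 68 members the log2 fold change correlated with log2 exonic length at Pearson's r = 0.55 and Spearman's rho = 0.55, as a description over genes that share 4 libraries. Over the 13361 protein-coding genes tested the values were 0.37 and 0.46, so the members lie on a trend that all genes had. Of the 23 shortest members (279 to 3153 bp) 4 were fitted higher in Sox17eKO, with a median of -0.13. Of the 22 in the middle (3172 to 5953 bp) 10 were fitted higher, with a median of -0.03, and of the 23 longest (6147 to 22199 bp) 19 were fitted higher, with a median of 0.07. The longest member, Hnrnpr, had the largest rise, and Sf3b6 was among the 23 shortest. Fold change also ran with gene span (Pearson's r = 0.46 over members, 0.31 over protein-coding genes) and against GC content (-0.38 over members, -0.20 over protein-coding genes). With the number of annotated retained-intron transcripts Pearson's r was 0.10 in both sets, and Spearman's rho was 0.21 over members and 0.12 over protein-coding genes. With the number of annotated nonsense-mediated decay transcripts Pearson's r was 0.19 over members and 0.06 over protein-coding genes, and Spearman's rho was 0.30 and 0.09.

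**Figure D3:**
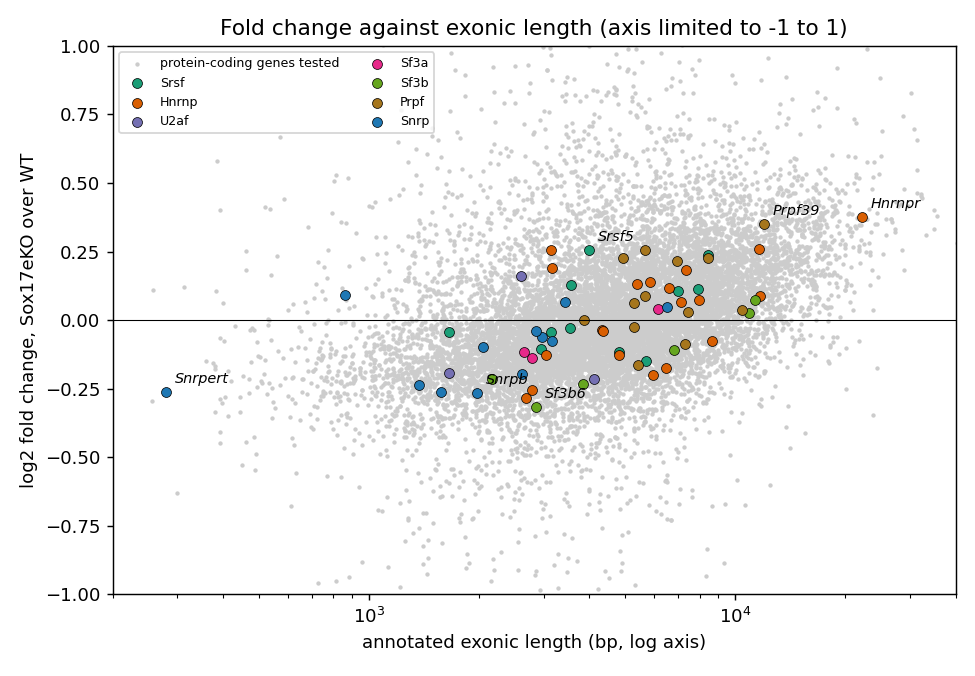
Fitted log2 fold change of Sox17eKO over WT against annotated exonic length (bp, log axis) for the members, coloured by family, over the protein-coding genes tested in grey, with the vertical axis limited to -1 to 1. Members lie mostly below 0 among short genes and mostly above 0 among long ones, and the grey points show a weaker trend (Pearson's r = 0.55 for members and 0.37 for protein-coding genes).

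When each library's smooth dependence on exonic length and gene span was removed, Pearson's r over the 67 protein-coding members was 0.05, against 0.53 before, and the fitted direction changed for 11 of them. Hnrnpr was then at 0.11 on the log2 scale (edgeR adjusted p = 0.582) and Sf3b6 at -0.24 (edgeR adjusted p = 0.151), both outside the threshold. Srsf5, an SR gene of middle length, was then the member past the threshold, at 0.30 (edgeR adjusted p = 0.0398), where 1.09% of protein-coding genes were called. A difference between the genotypes that itself depends on length would be taken out by this step as well.

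The members differ from other protein-coding genes tested in their annotation. Their median gene span was 13770 bp, against 25430 bp, at a like exonic length of 4814 bp, against 4584 bp. A retained-intron transcript is annotated for 50 of 68 members (73.5%), against 57.7% of protein-coding genes tested, and a transcript subject to nonsense-mediated decay for 34 (50%), against 27.8%. Their median level was also higher, 87.9 CPM against 25.9 CPM, and its part in these shares was not tested. The gene-level counts hold no measure of these transcripts, so intron retention and exon choice within the members were not analysed here.

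The 4 libraries also differ in the share of reads outside annotated exons, highest in Sox17eKO replicate 1, then Sox17eKO replicate 2, WT replicate 1 and WT replicate 2. The CPM of 7 members followed that order exactly (10.3%, against 10.5% of all genes tested), namely Hnrnph1, Hnrnpu, Hnrnpa1, Hnrnpr, Srsf5, Srsf11 and Prpf4b. The CPM of 13 members followed the opposite order (19.1%, against 9.78% of all genes tested), among them Hnrnpab, Hnrnpl, Srsf2, U2af2, Sf3a3, Sf3b5 and Snrpb. The part of this share in the members' differences was not tested.

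Other genes of the splicing pathway, outside the 7 prefixes, were counted by list. Of 110 protein genes in 7 lists, 14 were called higher in Sox17eKO (12.7%, against 4.13% of all genes tested). In the main edgeR fit, by DESeq2 or by limma-voom 0 were called lower, and 5 were with the trend on GC content removed. At an unadjusted edgeR p under 0.05, 24 were higher and 12 lower. Of all 16570 genes tested, 2028 were higher and 1443 lower at this cut. Of the 14 called, 10 were regulators of splice site choice or SR-related proteins. Of the 17 SR kinases and SR-related proteins 6 were called higher, with a median log2 fold change of 0.23. Rbm25, which encodes a U1-associated regulator of alternative exons, stood at 273 and 252 CPM in Sox17eKO, against 207 and 186 CPM in WT (log2 fold change 0.41, edgeR adjusted p = 0.00628). Srrm1, which encodes an SR-related coactivator of splicing, stood at 83.7 and 84.0 CPM in Sox17eKO, against 62.2 and 65.9 CPM in WT (0.39, edgeR adjusted p = 0.00757). Srrm2, whose product organises nuclear speckles, rose by 0.37 on the log2 scale (edgeR adjusted p = 0.00874), and Clk4, which encodes a kinase of SR proteins, by 0.41 (edgeR adjusted p = 0.0121). The sum over this list was 3258 and 3104 CPM in Sox17eKO, against 2799 and 2676 CPM in WT.

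Among proteins of U1, U2 and U5 snRNP outside the prefixes, 2 of 18 were called higher, with a median of -0.02. Both belong to the Luc7-like proteins of U1 snRNP. Luc7l2 stood at 219 and 196 CPM in Sox17eKO, against 156 and 152 CPM in WT (log2 fold change 0.43, edgeR adjusted p = 0.00406), and Luc7l3 at 210 and 186 CPM in Sox17eKO, against 160 and 162 CPM in WT (0.30, edgeR adjusted p = 0.037). Of 25 other splicing regulators 4 were called higher (median 0.09), among them Mbnl2 (0.31), Celf2 (0.31) and Rbm20 (0.27), the last known for the splicing of titin mRNA in heart muscle. Of 15 genes of the exon junction complex and nonsense-mediated decay 2 were called higher (median -0.04). Smg1, which encodes the kinase that starts decay, stood at 226 and 228 CPM in Sox17eKO, against 163 and 141 CPM in WT (0.58, edgeR adjusted p = 0.000579). The 19 genes of the catalytic steps and the Prp19 complex (median -0.01), the 8 Lsm ring genes (-0.13) and the 8 proteins of the minor spliceosome (-0.05) had 0 calls by edgeR. At an unadjusted p under 0.05 these lists had 4, 3 and 2 genes lower, in that order, and 0 higher. Over all 16570 genes tested, 1443 were lower and 2028 higher at this cut.

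**Figure D4:**
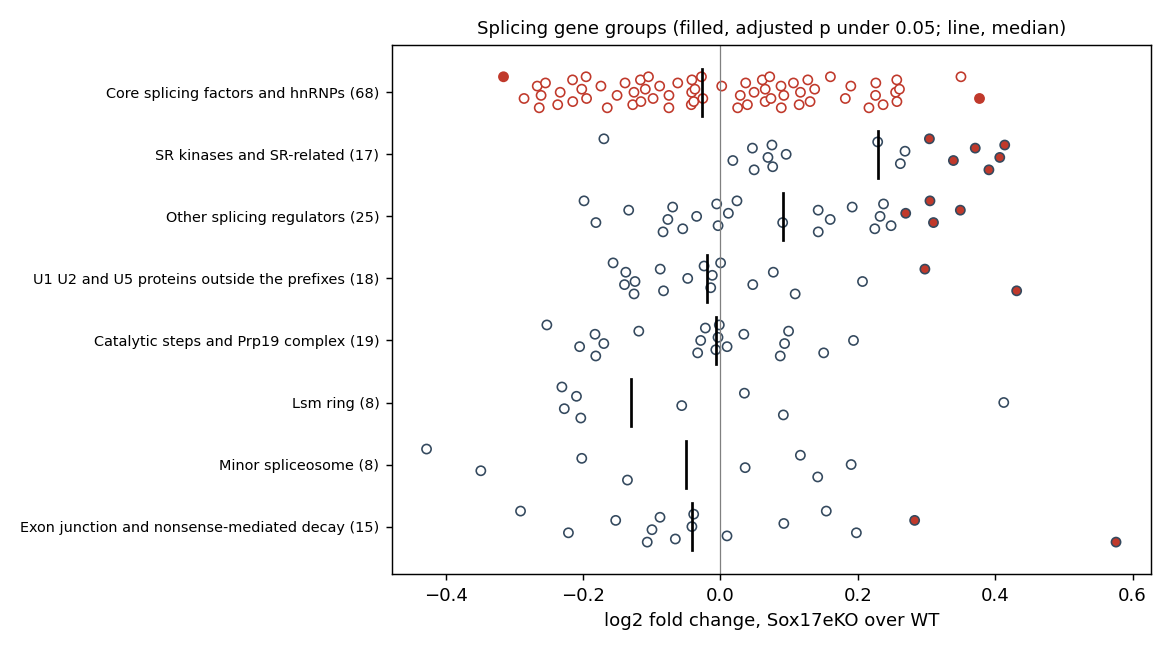
Fitted log2 fold change of Sox17eKO over WT for each gene of the 68 members (top row) and of the 7 lists of other splicing proteins, with the number of genes in brackets, filled points for an adjusted p under 0.05 and a black line at each median. The medians lie between -0.13 and 0.23, and all filled points outside the top row lie above 0.

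With each library left out in turn, the Smg1, Luc7l2 and Srrm1 calls held in all 4 fits. Without WT replicate 2, the shallowest library, Rbm25 (log2 fold change 0.34) and Srrm2 (0.38) lost the call. Clk4 lost it without WT replicate 2 (0.35) and without Sox17eKO replicate 1 (0.30), as did Mbnl2 (0.20 and 0.27) and Celf2 (0.21 and 0.23). Without the robust option Luc7l3, Mbnl2, Celf2 and Rbm20 lost the call, and Mbnl2, Celf2 and Rbm20 lost it with DESeq2 and Celf2 with limma-voom. Luc7l3 kept the call without Sox17eKO replicate 2 and lost it without Sox17eKO replicate 1 (0.21), WT replicate 1 (0.29) or WT replicate 2 (0.31). Rbm20 lost it in all 4 fits (0.21 to 0.33). With the trend on length and span removed, 3 of the 14 stayed past the threshold, namely Clk4 at 0.38, Srrm1 at 0.33 and Pnn at 0.34, the last an SR-related protein named here after its values were seen. The Pnn call was lost without Sox17eKO replicate 1 (0.28) and without WT replicate 2 (0.29). With the trend removed Celf2, which has 25884 bp of annotated exons, was at -0.13.

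The RNA partners of these proteins were also in the table. Of 10 spliceosomal small nuclear RNA genes, 9 were tested, and 3 were called lower and 1 higher in Sox17eKO. Over all genes tested, 1.22% were called lower and 4.13% higher. The 9 are annotated at 107 to 191 bp, and the fit with the length and span trend removed held protein-coding genes only. The part of length in their values was not tested. The median log2 fold change of the 9 was -0.32. They include Rnu6-ps2, a pseudogene by its symbol, at -0.42 and not called. Rnu12, the U12 RNA of the minor spliceosome, stood at 3838 and 4511 CPM in Sox17eKO, against 5226 and 6011 CPM in WT (-0.43, edgeR adjusted p = 0.0191). Rnu11 stood at 1752 and 1721 CPM in Sox17eKO, against 2105 and 2245 CPM in WT (-0.32, edgeR adjusted p = 0.0308). Rnu5g, a U5 gene, was at -0.53 and Rnu1b1, a U1 gene, at 1.44 on fewer reads, 35 and 120 in Sox17eKO, against 18 and 13 in WT. The Rnu1b1 value was 0.68 without Sox17eKO replicate 2, and the Rnu12 call was lost without Sox17eKO replicate 1 (-0.32) and without WT replicate 2 (-0.32). The Rnu11 and Rnu5g calls held without WT replicate 1 and were lost without WT replicate 2 (-0.28 and -0.46), Sox17eKO replicate 1 (-0.34 and -0.56) or Sox17eKO replicate 2 (-0.31 and -0.48), and that of Rnu1b1 held without Sox17eKO replicate 1. Small nuclear RNA genes have near-identical copies in the genome, so these values are uncertain. Alignments that were not unique, 41521440 to 88777075 per library, were not counted to genes. The low counts left for the U1, U2, U5 and U6 genes may therefore not measure these RNAs. Without the robust option all 4 calls were lost, at edgeR adjusted p = 0.0693 for Rnu12, 0.075 for Rnu11, 0.0513 for Rnu5g and 0.067 for Rnu1b1, and that of Rnu1b1 was also lost with limma-voom (adjusted p = 0.125).

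The number of members called depended on the setting. It was 2 with DESeq2's size factors in edgeR (5.27% of genes tested), 4 when scaled by library size only (5.31%), 1 with DESeq2 (7.68% of the genes to which it gave an adjusted p) and 2 with limma-voom (4.81%). It was 8 with no filter on low counts (4.87%), 4 when a mean of 1 CPM was required (5.98%) and 2 without the robust option (3.61%). A block on replicate number gave 12 (17.6%, against 10.2% of all genes tested). Among protein-coding genes it was 6 (5.61%), then 8 with the trend on GC content removed (8.18%), 2 with trends on length, span and GC content removed (2.04%) and 5 with the block and the trend on length and span removed (4.86%). Hnrnpr was called in 12 of 17 alternatives and Sf3b6 in 9, and each kept its direction in all 17.

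**Figure D5:**
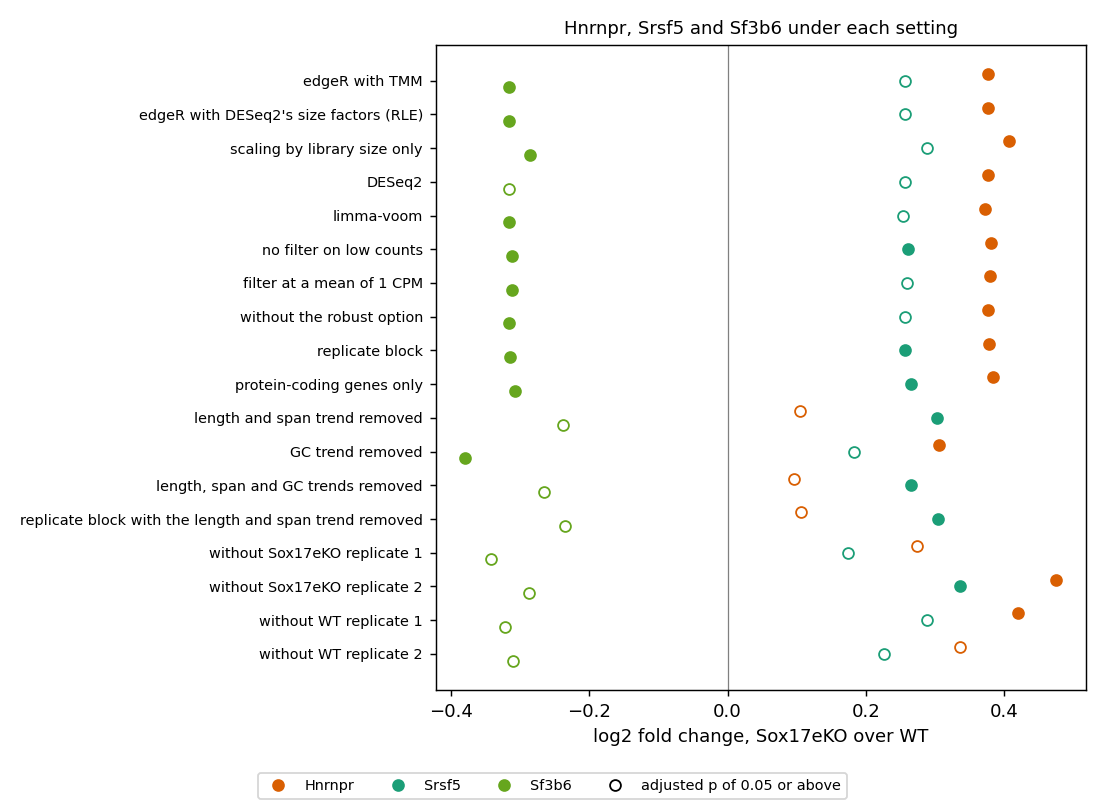
Log2 fold change of Sox17eKO over WT for Hnrnpr, Srsf5 and Sf3b6 under each setting of the analysis, with filled points for an adjusted p under 0.05. Hnrnpr stays above 0 and Sf3b6 below 0 under each setting shown, while Hnrnpr is open at 0.11 and Srsf5 filled at 0.30 with the length and span trend removed.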

How the data were processed

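For 4 libraries the authors deposited whole-number counts, 1 per Ensembl gene and not normalized. The RNA was total RNA and the Illumina protocol was strand-specific, per the labels' protocols. The submitters' processing notes name TopHat2, HTSeq and mm10. Their versions, the annotation release and the use of strand in counting are not given in the sources used here. Symbols, coordinates and lengths came from GENCODE M21 (GRCm38), which matched 45143 of 45706 genes (563 unmatched) and may differ from the authors' release. The 5 summary rows of HTSeq entered neither the tests nor the library sizes. Reads outside features made up 20.4% to 34.1% and ambiguous reads 3.38% to 6.22% of uniquely placed reads.

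Counts were tested with edgeR 4.0.16 (R 4.3.3; quasi-likelihood, robust fit, TMM factors of 0.976 to 1.02, filterByExpr, prior count 0.125), genotype as the only term, on 16570 genes with Benjamini-Hochberg adjustment over all of them. Levels are TMM-scaled CPM. Standard errors were derived from the F statistic, with 95% intervals from its degrees of freedom. The script was tested on simulated counts. Pools of 1 genotype differed beyond counting noise (chi-square over its degrees of freedom 6.01 in Sox17eKO and 4.77 in WT), and each counts as 1 sample. The labels do not say that equal replicate numbers mark a shared litter or day. Intervals cover the spread between pools, and depth was 8113463 to 21883956 reads in genes.

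Described in full were members called, the members of each prefix family with the highest and lowest level per length and the smallest p, the 3 highest and 3 lowest fold changes, and up to 4 called genes per other list. Others are named with single values, and some called genes of the other lists are not reported here. The members and lists were chosen with earlier results of these data known, so no list was tested as a set. Alternatives were other scalings and filters, DESeq2 1.42.0, limma-voom (limma 3.58.1), no robust option, a replicate block, each library left out, protein-coding genes only, and smooth trends on length and span (mgcv 1.9.3). Trends on GC content, read from the longest transcript of each gene, were added after seeing the data. Promoter sequences came from RefSeq, and no genome sequence was used.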

Additional observations from a re-analysis of the deposited data

How the results depend on the processing

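With all 4 libraries, 886 genes were called, 684 higher and 202 lower, with 1 member higher and 1 lower, a member median of -0.03, and 14 other splicing genes higher and 0 lower. Scaling by library size only gave 111 genes lower, 3 members higher and a median of 0.0041. DESeq2 called 409 genes (300 higher, 109 lower) and 0 members lower, with an adjusted p of 0.0643 for Sf3b6. The limma-voom median was -0.0128. Without a filter on low counts 1364 genes were called (387 lower), with 4 members higher and 4 lower, and a filter at a mean of 1 CPM gave 3 members higher. Without the robust option 105 genes were lower and 9 other splicing genes higher. Protein-coding genes alone gave 4 members higher and 2 lower.

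Equal replicate numbers did not deviate together (correlation -0.03 over all genes). With so few pools per genotype, this correlation cannot tell whether equal numbers mark a shared litter or day. With the replicate block 1684 genes were called (1107 higher, 577 lower), with 7 members higher and 5 lower and a median of -0.0132.

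With the length and span trend removed, 146 genes were called (80 higher, 66 lower), 0 members lower and 3 other splicing genes higher, with a median of -0.0049. With the GC trend removed, 465 genes were lower, 2 members higher, 6 members lower and 5 other splicing genes lower, with a median of -0.0406. With length, span and GC trends removed, 272 genes were called (125 higher), 6 other splicing genes higher, with a median of -0.0139. The replicate block with the length and span trend removed gave 264 genes higher and 386 lower, 3 members higher and 2 lower, 1 other splicing gene lower and a median of -0.0043.

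With 1 library left out, 192 to 1219 genes were called (172 to 756 higher, 20 to 463 lower), 0 to 3 members higher, 0 to 4 members lower and 3 to 13 other splicing genes higher.

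Of 601 values for 37 named genes under the alternatives, 19 changed sign, all but those of Celf2 of genes outside the threshold. With the length and span trend removed Prpf8 was at -0.0313, Sf3b1 at -0.0696, Srsf12 at 0.005 and Celf2 at -0.13. With length, span and GC trends removed Sf3a2 was at 0.022, Prpf8 at -0.0311, Snrpc at -0.0003, Sf3b1 at -0.0802 and Celf2 at -0.13, and with the GC trend alone Snrpc was at -0.0033. With the replicate block and the length and span trend removed Prpf8 was at -0.0341, Sf3b1 at -0.0683, Srsf12 at 0.0419 and Celf2 at -0.12. With 1 library left out Srsf12 ranged from -0.36 to 0.56, Prpf8 from -0.0412 to 0.0943, Snrpc from -0.14 to 0.21 and Sf3b1 from -0.0026 to 0.15. The causes of these changes were not tested. Depth limits Srsf12, Snrpg and other members of low level most.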
